A study of Caenorhabditis elegans with 80 samples.

Results

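The oldest age of a time course of the nematode Caenorhabditis elegans, day 18, was compared with the youngest, day 6, across all expressed genes. The comparison used 12 of the 80 libraries of the study, 6 at each age, chosen by the strain and day in their library names. Both groups were whole hermaphrodites of the wild-type strain N2, kept at 20 °C on agar with OP50-1 E. coli and streptomycin, and moved to fresh plates every 2 days from young adulthood. The plates of both ages contained FUDR, a drug that blocks DNA synthesis and keeps eggs from developing, and it acts on dividing germ cells as well as on embryos. The labels do not say from which stage the days were counted, or whether the 6 libraries of an age came from separate cultures. The p-values therefore measure the spread between libraries. Used beside this comparison were 18 libraries of the same time course at days 8, 11 and 14, 30 further N2 libraries at day 6 (the second N2 set), and 20 day 6 libraries of CF1038, the strain with the mu86 allele of daf-16, the FOXO factor gene of insulin signalling.

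An adult hermaphrodite is a self-fertile animal whose body cells no longer divide. Its germline makes sperm in the last larval stage and then switches to oocytes, and its intestine supplies the oocytes with yolk. Ageing worms are known to lose muscle structure, feeding and movement, to accumulate yolk and to develop abnormal gonads, and the RNA of whole worms pools all of these tissues.

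The 12 libraries held 35.7 to 41 M counts at day 6 and 36.4 to 39.1 M at day 18. In a principal component analysis of these 12 libraries, the ages lay apart on component 1 (85.4 percent of the variance). Component 2 (3.49 percent) had day 18 libraries 1 to 3 on one side and libraries 4 to 6 on the other. The labels give all 6 the same batch value, and values for each set of 3 are given beside many of the gene lists. The second N2 set, of the same strain, age and batch value as the day 6 group, differed from it in 3142 of 16703 tested genes (18.8 percent), with a median absolute log2 difference of 0.20. Tallies against that set are given beside many of the gene lists. Levels are in CPM, the count scaled to a library of 1e+06 counts. At day 6 a library had between 12309 and 12718 genes at 1 CPM or more, and at day 18 between 12940 and 13498. No library of one age reached the other (12577 ± 166 against 13282 ± 195, SD, n = 6 per age, exact 2-sided permutation test, p = 0.00216, the smallest that 6 against 6 can give, adjusted p = 0.00649 over 6 measures). The 10 highest genes took 10 ± 0.740 percent of the counts of a library at day 6 and 7.635 ± 0.651 percent at day 18 (exact permutation test, adjusted p = 0.00649). Against the second N2 set as day 6 neither difference passed (permutation test, adjusted p = 0.106 and 0.137). That comparison used library totals without TMM scaling for both measures, and random rather than all arrangements.

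Most tested genes differed between the ages. Of 46904 listed genes, 23053 had no count in any library, and 16710 passed the filter on low counts and were tested. Of these, 9519 were called at an adjusted p under 0.05 (57 percent), 4840 of them higher at day 18 (29 percent) and 4679 lower (28 percent). Changes of at least 2-fold made up 2359 genes that rose (14.1 percent) and 1938 that fell (11.6 percent), and 6753 genes (40.4 percent) had 6 day 18 libraries that did not overlap the 6 day 6 libraries. The median log2 fold change of all tested genes was -0.01. The larger the change, the more often it was a rise: 1564 genes rose and 646 fell by at least 4-fold, and 361 rose and 26 fell by at least 64-fold. Large changes were rarer at high levels. Of the 110 genes with a mean of 1000 CPM or more, 2 rose and 6 fell by at least 2-fold, and of 2048 genes between 100 and 1000 CPM 1.71 percent rose and 4.59 percent fell by that much. Between 1 and 10 CPM the same shares were 23.6 and 15.1 percent of 5405 genes. Log2 fold changes and adjusted p-values throughout come from edgeR's quasi-likelihood test with Benjamini-Hochberg adjustment over all tested genes.

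**Figure D1:**
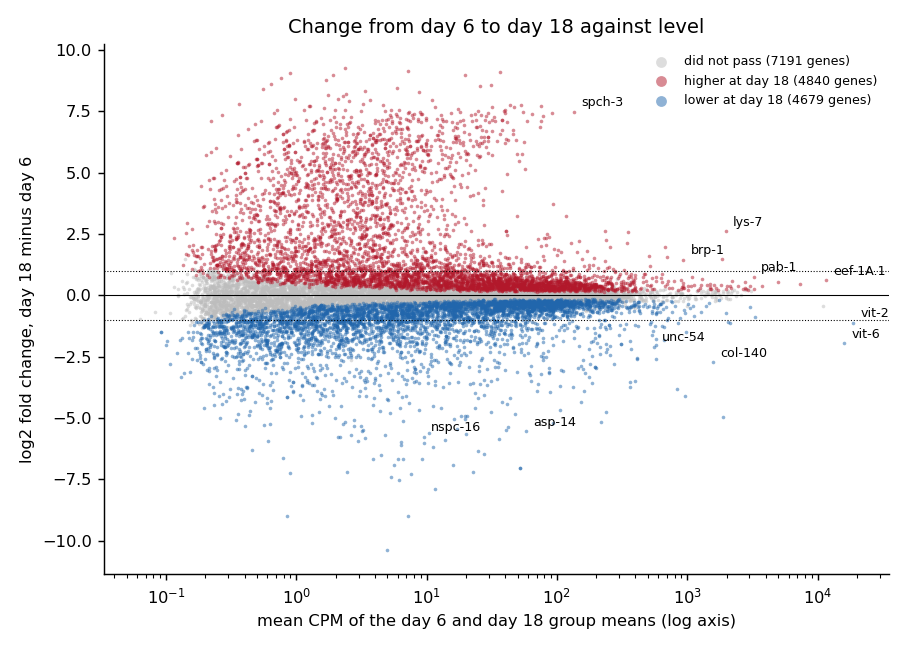
Log2 fold change of day 18 minus day 6 (vertical axis) against the mean CPM of both ages (horizontal, log axis) for 16710 genes, with 4840 higher in red, 4679 lower in blue and the others in grey, and dotted lines at 2-fold. The rises beyond 16-fold lie mostly below 100 CPM, while the genes above 1000 CPM lie close to 0 apart from a few such as lys-7, vit-6 and col-140.

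Counts moved were ranked among called genes with a standard symbol (letters and a number) whose ages did not overlap. The rises that moved the most counts there were in genes of protein synthesis, in the lysozyme gene lys-7 and in the galectin gene lec-2. CPM are not corrected for gene length, so they are compared between ages of a gene and not between genes. The gene eef-1A.1 (chromosome III, 6970026 to 6971712, WBcel235) encodes the elongation factor that brings aminoacyl-tRNAs to the ribosome. Its lowest, median and highest library stood at 8120, 9017 and 10373 CPM at day 6 and at 12628, 13750 and 15656 CPM at day 18 (log2 0.62, SE 0.08, adjusted p = 9.9e-08), and the ages did not overlap. The poly(A)-binding protein gene pab-1 went from 2279, 2415 and 2581 to 3783, 3990 and 4518 CPM in the same order (log2 0.76, SE 0.07, adjusted p = 5.8e-11). Elongation factor 2, which moves the ribosome along the mRNA, followed with eef-2 at 4002 ± 499 to 5885 ± 325 CPM (log2 0.56, adjusted p = 2.5e-07). Every day 18 library lay above every day 6 library for both genes. The lysozyme gene lys-7, which acts in defence against bacteria and is a known DAF-16 target, had 427, 548 and 705 CPM at day 6 and 1501, 3192 and 5235 CPM at day 18 (log2 2.61, SE 0.26, adjusted p = 8.4e-10). Its day 18 libraries were spread widely, with a mean of 4480 CPM in libraries 1 to 3 and 2285 in libraries 4 to 6, and the day 11 and day 14 changes were larger still (log2 3.43 and 3.98). The galectin gene lec-2, of a family that binds galactose-containing sugars, went from 212, 262 and 383 to 914, 1045 and 1322 CPM (log2 1.956, SE 0.14, adjusted p = 9.5e-14). Of the 12 lec genes tested 1 rose and 6 fell, 3 of the falls being at least 2-fold (median log2 -0.35). Among those that did not pass were lec-1, lec-3 and lec-4, picked after their values were seen, at log2 0.04, -0.06 and -0.22. Also among the 12 rises were brp-1 and srlf-7, which went from 497 ± 53.5 to 1364 ± 178 CPM (log2 1.46, adjusted p = 1.1e-11) and from 968 ± 46.1 to 2742 ± 1108 CPM (log2 1.503, adjusted p = 9.1e-06). The calreticulin gene crt-1, a calcium-binding chaperone of the endoplasmic reticulum, and the ribosomal protein genes rps-4, rps-6, rpl-2 and rpl-4 completed this set, with log2 0.68, 0.60, 0.77, 0.40 and 0.38. Strandedness is not given in the sources used here, so the counts of genes that overlap another are uncertain. Of the genes named in the text these are eef-1A.1, crt-1, col-124, syp-1, hsp-25, fum-1, phb-2, atic-1, pho-1, vha-2, clik-1, nas-11, pals-26, tdc-1, eat-4, osm-3, aak-1, atf-4, atf-7 and cwn-2.

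The falls that moved the most counts, ranked in the same way, were in yolk, cuticle, lysosome and muscle genes. In RNA from whole worms, fewer cells of a type and less RNA per cell cannot be told apart. The yolk protein gene vit-2 (chromosome X, 5101042 to 5106169) had 21266, 25351 and 29505 CPM at day 6 and 8417, 12205 and 14368 at day 18 (log2 -1.12, SE 0.20, adjusted p = 1.4e-05), with no overlap between ages. For vit-3 and vit-4, the means went from 1550 ± 384 to 111 ± 83.5 CPM (log2 -3.80, adjusted p = 1.5e-08) and from 1811 ± 503 to 106 ± 79.1 CPM (log2 -4.099, adjusted p = 1.7e-08). Near-identical copies such as vit-3, vit-4 and vit-5 share reads, so their split is uncertain. Among cuticle collagens, col-140 had 2084, 2742 and 3121 CPM at day 6 and 188, 426 and 669.5 at day 18 (log2 -2.72, SE 0.23, adjusted p = 2.7e-11). The adult collagen gene col-19 had 1085, 1425 and 1665 and 309, 538 and 720.2 CPM (log2 -1.495, SE 0.16, adjusted p = 2e-09). Both were below every day 6 library in all 6 day 18 libraries. The collagen gene col-124 moved from 993 ± 198 to 163 ± 90.1 CPM (log2 -2.61, adjusted p = 5.5e-09). The gene col-119 moved from 4308 ± 606 to 2319 ± 633 CPM (log2 -0.89, adjusted p = 3e-06), but lost its call against the second N2 set (log2 -0.13, adjusted p = 0.478). The cathepsin D-like protease gene asp-3 had 882, 1067 and 1158 CPM at day 6 and 98.7, 303 and 503 at day 18 (log2 -1.80, SE 0.31, adjusted p = 1.1e-05). At day 18 its mean was 460.3 CPM in libraries 1 to 3 and 134 in libraries 4 to 6, and all 6 lay below day 6. The cathepsin B-like gene cpr-6 fell from 925 ± 93.5 to 229 ± 73.4 CPM (log2 -2.01, adjusted p = 7.8e-09). The gene far-2, which encodes a secreted fatty acid and retinol binding protein, fell from 2792 ± 274 to 1309 ± 308 CPM (log2 -1.09, adjusted p = 8.1e-07). The body wall muscle myosin heavy chain gene unc-54 (chromosome I, 14855901 to 14863482) had 546, 875 and 1297 CPM at day 6 and 139.7, 227 and 267 at day 18 (log2 -2.098, SE 0.24, adjusted p = 9e-09), with ages apart.

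**Figure D2:**
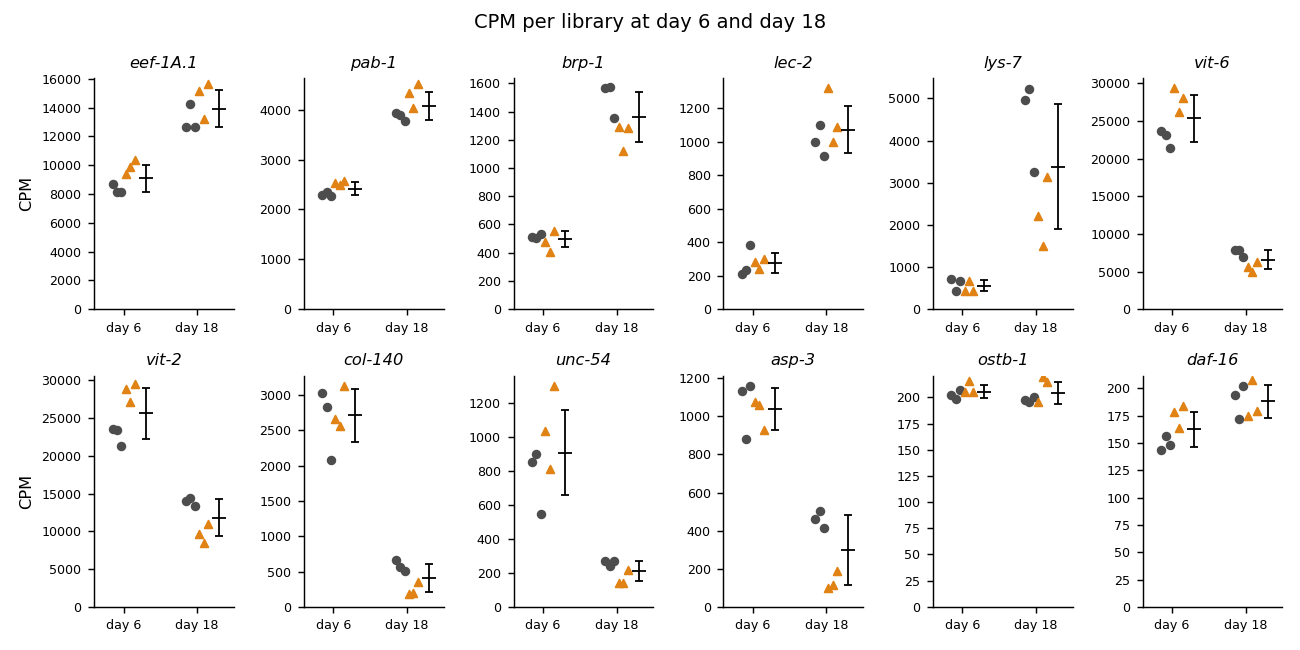
CPM per library of 12 genes at day 6 and day 18, with circles for libraries 1 to 3, triangles for libraries 4 to 6 and a bar for the mean ± SD of 6 libraries, each axis starting at 0. The ages are apart for eef-1A.1, pab-1, brp-1, lec-2, lys-7, vit-6, vit-2, col-140, unc-54 and asp-3, and overlap for ostb-1 and daf-16. For asp-3 the day 18 circles lie above the triangles.

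Ranked by the test rather than by counts, the firmest rises belonged to genes that were near 0 at day 6. The adenine nucleotide carrier gene ant-1.4 (chromosome IV, 8459178 to 8460308) had 0.139, 0.162 and 0.346 CPM at day 6 and 18.7, 25.1 and 38.3 at day 18 (log2 7.13, SE 0.25, adjusted p = 1.2e-19). The PDZ-domain gene gipc-1 had 0.691, 0.982 and 1.55 and 106, 149 and 272 CPM (log2 7.42, SE 0.27, adjusted p = 7.9e-19). The Argonaute gene alg-4, which acts with alg-3 in small RNA control of sperm development, had 0.319, 0.378 and 0.571 and 30.3, 41.3 and 83.5 CPM (log2 6.89, SE 0.28, adjusted p = 1.8e-18). None of these overlapped between ages. The sperm genes smz-1, smz-2, spe-18 and cylc-2, the cyclophilin gene cyn-2, the phosphatase gene ptp-5.3 and the cystathionine beta-synthase gene cbs-2 rose by log2 5.63, 4.204, 4.93, 7.16, 4.16, 6.86 and 3.88. The firmest falls included genes of the gut and of lipid synthesis. The aspartic protease gene asp-14 had 80.2, 114 and 140.1 CPM at day 6 and 1.75, 2.19 and 3.53 at day 18 (log2 -5.53, SE 0.27, adjusted p = 8.2e-17). The gene ifc-1, an intermediate filament gene of the intestine, had 18.1, 19.9 and 23.4 and 0.117, 0.465 and 0.669 CPM (log2 -5.60, SE 0.29, adjusted p = 1.5e-16). The gene pmt-2, which encodes a methyltransferase of phosphatidylcholine synthesis, fell from 112.4, 145 and 159 to 37.8, 42.1 and 47.5 CPM (log2 -1.74, SE 0.10, adjusted p = 4.5e-16). The ages did not overlap for any of these 3. The ceramidase gene asah-2 fell from 44.4 ± 7.41 to 6.12 ± 0.791 CPM (log2 -2.86, adjusted p = 7.2e-17). Also falling were the C-type lectin gene clec-47 from 54.7 ± 16.6 to 0.622 ± 0.217 CPM (log2 -6.46, adjusted p = 3.2e-16) and the acyltransferase gene oac-6 from 18.8 ± 5.47 to 0.290 ± 0.109 CPM (log2 -6.01, adjusted p = 4e-16).

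Among genes at 100 CPM or more at both ages, 5 had the smallest bound on their change, the absolute log2 fold change plus a multiple of its SE. Each SE here was worked back from the fold change and the F statistic. It is unstable near a change of 0, so the choice of these 5 is uncertain. The oligosaccharyltransferase subunit gene ostb-1 had 198, 205 and 215 CPM at day 6 and 195, 199 and 219 at day 18 (log2 -0.01, SE 0.06, adjusted p = 0.868). The GW182 homologue ain-1, which acts in microRNA silencing, the mitochondrial inner membrane gene letm-1, the CCR4-NOT subunit gene ntl-4 and the purine synthesis gene adss-1 were the others. At days 6 and 18 ain-1 stood at 111.7 ± 9.74 and 111 ± 8.29 CPM, letm-1 at 116.3 ± 7.01 and 117 ± 4.76, ntl-4 at 107 ± 5.15 and 107 ± 4.70, and adss-1 at 299.6 ± 27.7 and 300.2 ± 16.1. The FOXO gene daf-16 had 144, 160.5 and 184 and 172, 187 and 208 CPM at days 6 and 18, and although it was called (log2 0.21, SE 0.07, adjusted p = 0.0166), its ages overlapped.

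The genes were also read as 66 lists by function, fixed by symbol. Each list is given by how many members rose or fell, to be read against the 29 and 28 percent of all tested genes. Its median log2 fold change is to be read beside -0.01 for all genes, and sums are of the members' CPM. Genes near 0 at day 6 entered the test through older libraries, so a count over them describes the list and does not test it. No direction of a list median changed under another scaling of the libraries.

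**Figure D3:**
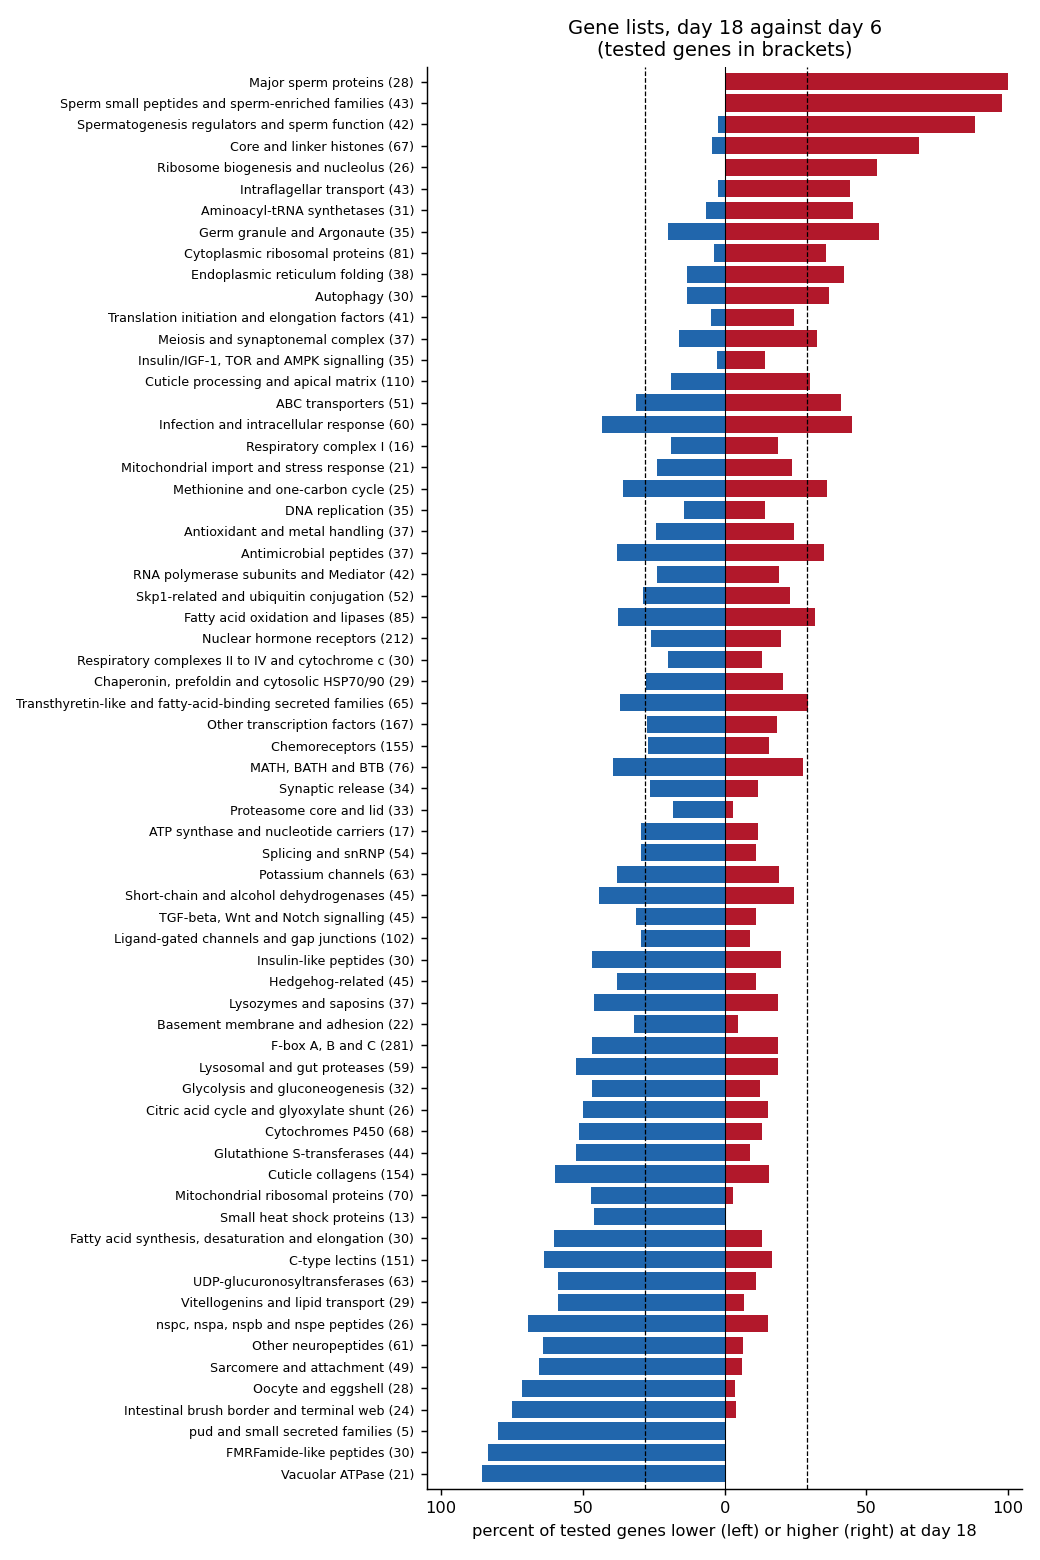
Percent of the tested members of 66 gene lists that were higher (right, red) or lower (left, blue) at day 18, ordered by the higher percent minus the lower, with dashed lines at the 29 and 28 percent of all tested genes. Sperm lists, histones, ribosome biogenesis and intraflagellar transport lie towards higher, and the vacuolar ATPase, FMRFamide-like peptides, brush border, oocyte and sarcomere lists towards lower.

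Most sperm genes rose, many of them from near 0. Among the 28 major sperm protein genes tested, of 31 listed, 28 rose, with a median log2 fold change of 6.26, and their summed level went from 18.1 ± 9.04 to 1266 ± 423 CPM (SD, n = 6 libraries). The day 18 sum was 1026 in libraries 1 to 3 and 1506 in libraries 4 to 6. Of the 43 small sperm peptides and sperm-enriched families tested 42 rose, 0 fell and 1 were not called (median log2 6.42). In that list msd-4, of the major sperm protein domain family, went from 0.343 ± 0.207 to 56.5 ± 19.4 CPM (log2 7.33, adjusted p = 1.5e-17) and nspd-7, of a nematode-specific peptide family, from 2.58 ± 0.467 to 53.7 ± 16.6 CPM (log2 4.38, adjusted p = 7.8e-18). Of the 42 regulators of spermatogenesis and sperm function tested 37 rose, 1 fell and 4 were not called (median log2 3.01). Their sum was not near 0 at day 6 and went from 455 ± 26.5 to 1458 ± 336 CPM. The sperm phosphatase genes gsp-3 and gsp-4 went from 0.318 ± 0.233 to 52.3 ± 21.1 CPM (log2 7.34, adjusted p = 3.5e-17) and from 0.361 ± 0.172 to 32.8 ± 11.4 CPM (log2 6.48, adjusted p = 4.1e-18), while spe-39, which acts in vesicle traffic in many tissues, fell (log2 -0.46, adjusted p = 0.00021). Genes that set the sperm fate of germ cells moved as well, and were picked after their values were seen. The gene fog-1 rose from 32.1 ± 1.55 to 133 ± 24.2 CPM (log2 2.05, adjusted p = 5e-10) and fog-3 from 0.880 ± 0.212 to 17.3 ± 3.40 CPM (log2 4.29, adjusted p = 4.5e-16). In contrast fem-3, which also acts for the sperm fate, fell from 122.9 ± 9.63 to 66.3 ± 7.65 CPM (log2 -0.89, adjusted p = 1.7e-07). The male genes lov-1, pkd-2 and her-1, of male neurons and male sex determination, were under 1 CPM at both ages (for example 0.391 ± 0.0955 and 0.493 ± 0.136 CPM for lov-1) and did not pass. Single values of sperm genes with close copies are uncertain, since reads can be shared out among them.

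Several families of general metabolism held a member with the sperm pattern. The cytochrome c gene cyc-2.2 rose from 0.188 ± 0.0904 to 18.3 ± 6.82 CPM (log2 6.56, adjusted p = 1.3e-16), and cyc-2.1 stood at 539 ± 86.1 and 606 ± 135 CPM and did not pass (adjusted p = 0.294). The carrier genes ant-1.3 and ant-1.4 rose by log2 5.53 and 7.13, against -0.18 for ant-1.1, which fell from 1878 ± 87.8 to 1655 ± 54.2 CPM. For phosphofructokinase, which commits sugar to glycolysis, pfk-1.2 rose from 0.578 ± 0.284 to 11.5 ± 3.67 CPM (log2 4.30, adjusted p = 2.3e-14) and pfk-1.1 did not pass (log2 -0.16, adjusted p = 0.139). Rises of the same order were seen in the fatty acid elongase gene elo-8 (log2 4.72), the acyl-CoA genes acs-10 and acdh-8 (6.26 and 5.88) and the ABC transporter genes wht-4, wht-5 and wht-8 (6.29, 6.29 and 5.81). They were also seen in the neprilysin peptidase genes nep-6, nep-13 and nep-23 (log2 6.85, 6.67 and 6.21) and the C-type lectin genes clec-73, clec-123 and clec-151 (4.85, 5.04 and 6.38). Each of these had a mean near or under 1 CPM at day 6, and each had a higher day 18 mean in libraries 4 to 6 than in libraries 1 to 3, as did the major sperm protein sum. That difference was not particular to sperm genes. The oocyte, DNA replication and proteasome sums were also higher in libraries 4 to 6, while others, such as the C-type lectin sum, were lower there. Common members were named here after their values were seen.

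Oocyte genes moved the other way, by less. Of the 28 oocyte and eggshell genes tested 1 rose, 20 fell and 7 were not called (median log2 -0.47), none by 2-fold, and their sum went from 20927 ± 1770 to 17385 ± 915 CPM. The eggshell chondroitin proteoglycan gene cpg-3 fell from 516 ± 21.4 to 329 ± 27.5 CPM (log2 -0.65, adjusted p = 5.6e-07). The eggshell chitin synthase gene chs-1 fell from 355 ± 34.9 to 194 ± 25.1 CPM (log2 -0.87, adjusted p = 3.4e-06) and the oocyte RNA-binding protein gene puf-5 from 1199 ± 128.6 to 732 ± 94.7 CPM (log2 -0.71, adjusted p = 2.1e-05). The eggshell gene perm-4 was the 1 that rose (log2 0.55, adjusted p = 0.0035), with overlapping libraries. Of the oocyte and embryo markers other than puf-5, oma-1, pos-1, cbd-1, rme-2 and end-1 fell, with log2 -0.53, -0.68, -0.45, -0.34 and -1.44. The level of end-1 was near or under 1 CPM. The marker pha-4 did not pass and med-1 was not tested. Against the second N2 set the list median was -0.23.

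More meiosis and germ granule genes rose than fell. Of the 37 meiosis genes tested 12 rose, 6 fell and 19 were not called (median log2 0.15). This tally depended on the day 6 set, and against the second N2 set 22 rose and 1 fell. With day 18 libraries 1 to 3, 8 rose and 2 fell and with libraries 4 to 6, 12 rose and 3 fell. The synaptonemal complex gene syp-1 went from 60.4 ± 2.38 to 122.8 ± 21.4 CPM (log2 1.02, adjusted p = 1.7e-07) and the meiotic cohesin gene rec-8 from 81.5 ± 6.81 to 119.5 ± 13.2 CPM (log2 0.55, adjusted p = 0.0004). Of the 35 germ granule and Argonaute genes tested 19 rose, 7 fell and 9 were not called (median log2 0.30). With libraries 1 to 3, 8 rose and 8 fell, and with libraries 4 to 6, 19 rose and 3 fell. In this list the Argonaute gene vsra-1 rose (log2 0.79, adjusted p = 7.5e-11) and the embryonic germ granule gene meg-1 fell (log2 -0.67, adjusted p = 4e-05). Of the 35 DNA replication genes tested 5 rose, 5 fell and 25 were not called (median log2 -0.03), which was not stable. With libraries 1 to 3, 0 rose and 4 fell, with libraries 4 to 6, 7 rose and 1 fell, and against the second N2 set 13 rose and 6 fell. Among core and linker histones 46 rose, 3 fell and 18 were not called of 67. The H4 gene his-60 rose from 5.21 ± 0.411 to 16.4 ± 5.33 CPM (log2 1.66, adjusted p = 3.6e-07) and the linker histone gene hil-2 from 40.2 ± 12.8 to 149 ± 19.6 CPM (log2 1.89, adjusted p = 2e-09). Most of these genes lie in repeated copies at low level: of 19 that reached 5 CPM in 6 libraries, 9 rose and 2 fell.

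More genes of cytoplasmic protein synthesis rose than fell, and more mitochondrial ribosomal protein genes fell than rose. Of the 81 cytoplasmic ribosomal protein genes tested 29 rose, 3 fell and 49 were not called (median log2 0.16), and 47 rose against the second N2 set. The small subunit gene rps-6 went from 812 ± 70.2 to 1381 ± 71.3 CPM (log2 0.77, adjusted p = 8.2e-08) and rps-4 from 1757 ± 172 to 2668 ± 254 CPM (log2 0.60, adjusted p = 1.7e-06). The subunit gene rps-15 fell with overlapping libraries (log2 -0.32, adjusted p = 0.00288). Of the 26 ribosome biogenesis genes tested 14 rose, 0 fell and 12 were not called (median log2 0.27). The nucleolar GTPase gene ngp-1 rose from 176 ± 6.43 to 270.4 ± 16.3 CPM (log2 0.62, adjusted p = 2.7e-10) and nog-1 from 460.1 ± 12.8 to 682 ± 64.8 CPM (log2 0.57, adjusted p = 2.6e-09). Both had 6 day 18 libraries above the 6 of day 6. Of the 31 aminoacyl-tRNA synthetase genes tested, whose products charge tRNAs, 14 rose, 2 fell and 15 were not called (median log2 0.13). The cytoplasmic leucine enzyme gene lars-1 went from 218 ± 10.9 to 377 ± 32.5 CPM (log2 0.79, adjusted p = 8.7e-12). The 2 that fell, fars-2 and sars-2, encode the mitochondrial enzymes of their pairs (log2 -0.82, adjusted p = 3.2e-08 and log2 -0.24, adjusted p = 0.00181). Of the 41 initiation and elongation factors tested 10 rose, 2 fell and 29 were not called (median log2 0.04). The 24.4 percent that rose was under the share of all tested genes. Their sum went from 25043 ± 2070 to 32855 ± 2318 CPM, and most of that gain lay in eef-1A.1 and eef-2. Of these factors 14 rose and 8 fell against the second N2 set. Of the 70 mitochondrial ribosomal protein genes tested 2 rose, 33 fell and 35 were not called (median log2 -0.22), none by 2-fold, and went in sum from 3008 ± 178 to 2585 ± 69.99 CPM. The subunit gene mrpl-36 went from 23.4 ± 3.46 to 13.1 ± 1.17 CPM (log2 -0.83, adjusted p = 2.4e-08) and mrpl-16 from 39.4 ± 2.24 to 25.9 ± 3.09 CPM (log2 -0.60, adjusted p = 2.4e-06), both with no overlap. The list median was -0.12 against the second N2 set. Of the 42 RNA polymerase and Mediator genes tested 8 rose, 10 fell and 24 were not called (median log2 -0.05), and with libraries 1 to 3, 2 rose and 9 fell. In this list the RNA polymerase II large subunit gene ama-1 rose from 262 ± 53.1 to 450.5 ± 54.2 CPM (log2 0.78, adjusted p = 1.1e-06). Of the 54 splicing genes tested 6 rose, 16 fell and 32 were not called (median log2 -0.12). In libraries 4 to 6 alone 8 rose and 9 fell, in libraries 1 to 3, 1 rose and 14 fell, and against the second N2 set 13 rose and 23 fell. The Sm protein gene snr-2 fell from 295 ± 18.3 to 190 ± 12.9 CPM (log2 -0.63, adjusted p = 4.5e-07), and the SR protein gene rsp-6 fell too (log2 -0.44, adjusted p = 2.9e-05).

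Chaperone genes of the endoplasmic reticulum rose more often than they fell, and no small heat shock protein gene rose in the main setting. Of the 38 endoplasmic reticulum folding genes tested 16 rose, 5 fell and 17 were not called (median log2 0.16), and their sum went from 7610 ± 329 to 9890 ± 433 CPM. Against the second N2 set 18 of them rose and 10 fell (median log2 0.09). The GRP94 chaperone gene enpl-1 had 396, 452 and 529 CPM at day 6 and 729.5, 829.1 and 876 at day 18 (log2 0.85, SE 0.07, adjusted p = 1.8e-11). The disulphide isomerase gene pdi-1 had 314, 339 and 370.3 and 494, 579 and 639.9 CPM (log2 0.76, SE 0.08, adjusted p = 4.7e-10). Neither overlapped between ages. The cyclophilin gene cyn-6 fell (log2 -1.65, adjusted p = 1.7e-09). Of 29 cytosolic chaperonin, prefoldin and HSP70/90 genes 6 rose and 8 fell, whereas 2 rose and 4 fell with libraries 1 to 3 and 8 rose and 4 fell with libraries 4 to 6. Examples are the chaperonin subunit gene cct-7 (log2 0.34, adjusted p = 9.5e-05) and the HSP40 gene dnj-13 (log2 -0.48, adjusted p = 2.7e-06). Of the 13 small heat shock protein genes tested 0 rose, 6 fell and 7 were not called (median log2 -0.66). In libraries 1 to 3 alone 2 of them fell. Against the second N2 set 1 of them rose and 9 fell, and with limma voom 1 rose and 5 fell. Among them hsp-25 fell from 59.9 ± 4.16 to 28.9 ± 5.80 CPM (log2 -1.05, adjusted p = 3.8e-08). This list stood higher in the second N2 set than in the day 6 group (median log2 0.94, 4 of the members called). Of the 33 proteasome genes tested 1 rose, 6 fell and 26 were not called (median log2 -0.09). However, 1 rose and 1 fell with RLE size factors or DESeq2, and 7 rose and 1 fell against the second N2 set. Of the 30 autophagy genes tested 11 rose, 4 fell and 15 were not called (median log2 0.13). The cargo receptor gene sqst-1 had 177, 189.5 and 205 CPM at day 6 and 335, 364 and 381 at day 18 (log2 0.94, SE 0.08, adjusted p = 2.7e-12). The ULK1 kinase homologue unc-51, which starts autophagosome formation, had 47.1, 48.3 and 53.9 and 74.3, 79.8 and 84.0 CPM (log2 0.69, SE 0.08, adjusted p = 1.4e-08). The list median was -0.01 against the second N2 set, with 8 that rose and 7 that fell.

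Few genes of the respiratory chain passed the test, and more genes of the citric acid cycle and glycolysis fell than rose. Of the 16 complex I genes tested 3 rose, 3 fell and 10 were not called (median log2 -0.13). Of the 30 genes of complexes II to IV and cytochrome c 4 rose, 6 fell and 20 were not called (median log2 -0.04). The copper chaperone gene sco-1, needed to assemble cytochrome oxidase, fell from 55.3 ± 4.22 to 35.01 ± 2.48 CPM (log2 -0.66, adjusted p = 2.3e-09). Of the 17 ATP synthase and nucleotide carrier genes tested 2 rose, 5 fell and 10 were not called (median log2 -0.09), and the subunit genes asb-2 and asg-2 fell (log2 -0.66, adjusted p = 5.4e-09 and log2 -0.86, adjusted p = 1.6e-07). Of the 26 citric acid cycle genes tested 4 rose, 13 fell and 9 were not called (median log2 -0.21). The isocitrate dehydrogenase subunit gene idhg-2 fell from 13.5 ± 1.39 to 2.83 ± 0.712 CPM (log2 -2.25, adjusted p = 5.1e-12). The lipoamide dehydrogenase gene dld-1 fell from 119.3 ± 7.99 to 79.8 ± 5.80 CPM (log2 -0.58, adjusted p = 1.7e-07), and the fumarase gene fum-1 rose (log2 0.48, adjusted p = 0.00015). Of the 32 glycolysis and gluconeogenesis genes tested 4 rose, 15 fell and 13 were not called (median log2 -0.17), and 9 fell in libraries 1 to 3 alone. The trehalase gene tre-1, whose product splits the worm's storage sugar, fell from 124 ± 7.18 to 66.7 ± 5.32 CPM (log2 -0.89, adjusted p = 2.1e-11). Its relative tre-2 fell from 73.2 ± 8.82 to 39.9 ± 1.91 CPM (log2 -0.88, adjusted p = 8.4e-11). The glycolytic dehydrogenase gene gpd-2 fell from 168.5 ± 13.8 to 100 ± 7.82 CPM (log2 -0.75, adjusted p = 6.4e-07). Of the 21 import and quality control genes of mitochondria tested 5 rose, 5 fell and 11 were not called (median log2 -0.10). The prohibitin genes phb-1 and phb-2 fell (log2 -0.39, adjusted p = 0.00122 and log2 -0.32, adjusted p = 0.00136). The protease gene ymel-1 rose (log2 0.57, adjusted p = 1.2e-06). The one-carbon list was split, 9 up and 9 down of 25. In it the acyl-CoA dehydrogenase gene acdh-1, known to respond to propionate and vitamin B12, had 479.5, 671 and 866 CPM at day 6 and 30.3, 52.6 and 74.7 at day 18 (log2 -3.72, SE 0.30, adjusted p = 7e-12), with ages apart. The S-adenosylmethionine synthetase gene sams-5 rose from 6.69 ± 2.16 to 48.4 ± 18.1 CPM (log2 2.85, adjusted p = 3.1e-12). The purine synthesis gene atic-1 fell from 111.8 ± 30.4 to 11.9 ± 3.50 CPM (log2 -3.23, adjusted p = 1.3e-11).

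Genes of fatty acid synthesis and of yolk and lipid transport fell more often than they rose. Of the 30 fatty acid synthesis, desaturation and elongation genes tested 4 rose, 18 fell and 8 were not called (median log2 -0.50) and went in sum from 4646 ± 258 to 3456 ± 407 CPM. The elongase gene elo-6, of branched-chain fatty acid synthesis, fell from 130.4 ± 18.6 to 25.5 ± 12.6 CPM (log2 -2.35, adjusted p = 6.1e-09). The serine palmitoyltransferase gene sptl-1, which starts sphingolipid synthesis, fell from 138 ± 15.1 to 78.6 ± 6.97 CPM (log2 -0.82, adjusted p = 3.4e-09). The desaturase gene fat-3, of polyunsaturated fatty acid synthesis, rose from 97.2 ± 16.2 to 225 ± 50.4 CPM (log2 1.21, adjusted p = 3.9e-08), after a larger rise at day 14 (log2 2.24). Of the 85 oxidation and lipase genes tested 27 rose, 32 fell and 26 were not called (median log2 -0.11). In libraries 1 to 3 alone 28 rose and 21 fell. The lysosomal lipase gene lipl-5 had 256, 328 and 469 CPM at day 6 and 15.3, 29.6 and 42.8 at day 18 (log2 -3.56, SE 0.23, adjusted p = 3.7e-14), with no overlap. The enoyl-CoA hydratase gene ech-6 fell from 298 ± 20.0 to 135 ± 12.4 CPM (log2 -1.15, adjusted p = 2.2e-09). Of the 29 vitellogenins and lipid transport genes tested 2 rose, 17 fell and 10 were not called (median log2 -0.58). Their sum went from 72919 ± 9866 to 31542 ± 6815 CPM, with 37230 in libraries 1 to 3 and 25854 in libraries 4 to 6 at day 18. The lipid-binding protein genes lbp-5 and lbp-7 fell (log2 -2.23, adjusted p = 4.1e-09 and log2 -3.39, adjusted p = 2.9e-14), and the LDL-receptor-like gene lrp-1 rose (log2 0.82, adjusted p = 1.6e-05).

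Most genes of the intestinal surface and of acidified compartments fell. Of the 24 brush border and terminal web genes tested 1 rose, 18 fell and 5 were not called (median log2 -1.04), 13 of the falls being at least 2-fold. With day 18 libraries 1 to 3, 0 rose and 12 fell (median log2 -0.68), and with libraries 4 to 6, 1 rose and 18 fell (-1.54). The intestinal actin gene act-5, which builds the microvilli, was at 378 ± 63.8 and 95.7 ± 46.99 CPM (log2 -1.98, adjusted p = 9.1e-08). The aquaporin gene aqp-4 and the acid phosphatase gene pho-1 went from 12.3 ± 2.85 to 1.17 ± 0.498 CPM (log2 -3.40, adjusted p = 3e-12) and from 12.9 ± 1.70 to 1.04 ± 0.406 CPM (log2 -3.63, adjusted p = 6e-11). The gut GATA factor gene elt-2, the defining marker of the tissue, did not pass (log2 -0.42, adjusted p = 0.0899), whereas the gut esterase gene ges-1 fell (log2 -0.93, adjusted p = 0.00408). Of the 21 vacuolar ATPase genes tested, whose products acidify lysosomes and the gut lumen, 0 rose, 18 fell and 3 were not called (median log2 -0.49), 1 of them by 2-fold. They went in sum from 3904 ± 295 to 2689 ± 141 CPM. Its subunit gene vha-15 had 99.4, 107 and 110.3 CPM at day 6 and 60.5, 63.6 and 68.5 at day 18 (log2 -0.73, SE 0.08, adjusted p = 3.2e-09). The subunit gene vha-2 had 480.3, 550 and 583 and 299, 333 and 341 CPM (log2 -0.72, SE 0.09, adjusted p = 1.6e-08). Both had ages apart. Of the 59 lysosomal and gut proteases tested 11 rose, 31 fell and 17 were not called (median log2 -0.58), with a median of -0.29 in libraries 1 to 3 and -0.86 in libraries 4 to 6. The proline peptidase genes pcp-2 and pcp-4 fell, with log2 -5.05 and -3.37. The sum of the protease list was 11979 ± 1011 CPM at day 6, 9697 in day 18 libraries 1 to 3 and 5474 in libraries 4 to 6.

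Most muscle genes fell. Of the 49 sarcomere and attachment genes tested 3 rose, 32 fell and 14 were not called (median log2 -0.58), 18 of them falling by at least 2-fold. In libraries 1 to 3 alone 0 rose and 24 fell (median -0.42), and in libraries 4 to 6, 2 rose and 31 fell (-0.85). The sum went from 9313 ± 1206 to 4913 ± 370.5 CPM. The troponin T gene tnt-2 had 147, 203 and 238 CPM at day 6 and 7.36, 15.96 and 21.8 at day 18 (log2 -3.71, SE 0.25, adjusted p = 8.1e-14). The calponin-like gene clik-1 had 179, 261 and 315 and 18.5, 34.8 and 46.5 CPM (log2 -2.94, SE 0.23, adjusted p = 2.1e-12), and the ages were apart in both. Of 4 body wall muscle markers, myo-3, unc-54 and unc-22 fell (log2 -1.16, -2.098 and -0.79), and the muscle transcription factor gene hlh-1 stood at 2.71 ± 0.258 and 2.66 ± 0.487 CPM and did not pass (adjusted p = 0.908). Pharyngeal muscle markers did not pass: myo-1, myo-2, tnc-2 and the regulator ceh-22 had log2 -0.09, 0.53, -0.21 and 0.35. Whether body wall and pharyngeal muscle differ from each other was not tested. Of the 22 basement membrane and adhesion genes tested 1 rose, 7 fell and 14 were not called (median log2 -0.20). The laminin gene lam-2 fell from 92.8 ± 9.66 to 49.03 ± 2.61 CPM (log2 -0.92, adjusted p = 5.5e-11) and epi-1 from 103.5 ± 9.48 to 54.8 ± 4.07 CPM (log2 -0.92, adjusted p = 8.7e-08). The integrin gene pat-3 fell as well (log2 -0.47, adjusted p = 3.2e-05). In libraries 1 to 3 alone 3 of that list fell.

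Most cuticle collagen genes fell. Of the 154 tested 24 rose, 92 fell and 38 were not called (median log2 -0.99). The sum went from 24504 ± 3372 to 15265 ± 4340 CPM, 18807 in libraries 1 to 3 and 11722 in libraries 4 to 6. The collagen gene col-139 had 31.1, 35.9 and 51.5 CPM at day 6 and 0.772, 1.27 and 1.89 at day 18 (log2 -4.92, SE 0.28, adjusted p = 8.9e-16). The gene col-183 moved the other way, from 5.23, 9.83 and 26.96 to 121, 167.8 and 232 CPM (log2 3.72, SE 0.33, adjusted p = 8.4e-11), and both were apart between ages. In the second N2 set 69 of the collagen genes stood higher and 12 lower than in the day 6 group, so the size of the fall depends on the day 6 set (median -1.63 against the second set). Of the 110 cuticle processing and apical matrix genes tested 33 rose, 21 fell and 56 were not called (median log2 0.15). Against the second set 26 rose and 42 fell, and with libraries 1 to 3, 27 rose and 11 fell. The astacin protease gene nas-11 rose from 64.6 ± 12.9 to 399.5 ± 97.1 CPM (log2 2.63, adjusted p = 2.4e-13), and the patched-related gene ptr-22 rose too (log2 2.79, adjusted p = 4.2e-11). Of the epidermal markers, the collagen genes dpy-7 and rol-6 fell (log2 -2.05 and -5.31) and the regulators elt-3 and lin-26 did not pass. Of the larval and moulting markers, which include dpy-7, nas-37 fell (log2 -0.81) and mlt-10 and noah-1 did not pass.

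Most C-type lectin genes fell, and other defence families moved in both directions. Of the 151 C-type lectins tested 25 rose, 96 fell and 30 were not called (median log2 -1.21), and the sum went from 6882 ± 531 to 3326 ± 674 CPM. Of the 37 lysozyme and saposin genes tested 7 rose, 17 fell and 13 were not called (median log2 -0.70), with a median of -0.16 in libraries 1 to 3 and -1.13 in libraries 4 to 6. The invertebrate lysozyme gene ilys-5 fell from 292 ± 86.97 to 14.2 ± 4.58 CPM (log2 -4.36, adjusted p = 1.6e-13), whereas lys-7 rose. The saposin-like gene spp-17 fell from 181 ± 49.9 to 4.92 ± 3.21 CPM (log2 -5.20, adjusted p = 4.8e-10). Its relative spp-4 fell as well (log2 -3.53, adjusted p = 5.8e-10). The saposin-like gene spp-12 rose from 0.376 ± 0.195 to 38.4 ± 35.4 CPM (log2 6.64, adjusted p = 3.1e-09). Its day 18 mean was 64.4 CPM in libraries 1 to 3 and 12.4 in libraries 4 to 6. Of the 37 antimicrobial peptide genes tested 13 rose, 14 fell and 10 were not called (median log2 -0.28), and 16 rose and 8 fell in libraries 1 to 3 alone. The defensin-like gene abf-2 had 2.98, 4.28 and 6.03 CPM at day 6 and 22.9, 27.2 and 33.4 at day 18 (log2 2.67, SE 0.18, adjusted p = 5.9e-14), with ages apart. The antimicrobial neuropeptide-like gene nlp-34 went from 2.37 ± 1.00 to 26.5 ± 11.4 CPM (log2 3.48, adjusted p = 2.3e-09). The fungus-induced-protein-related genes fipr-1 and fipr-2 fell (log2 -2.31, adjusted p = 1.1e-09 and log2 -2.61, adjusted p = 1.4e-11). Of the 60 infection and intracellular response genes tested 27 rose, 26 fell and 7 were not called (median log2 0.16). Here the pals genes, many of which respond to intracellular pathogens, mostly rose: 22 of 33 tested rose and 6 fell. For example, pals-26 rose from 2.69 ± 0.264 to 8.19 ± 0.989 CPM (log2 1.60, adjusted p = 1.3e-10) and pals-33 from 2.02 ± 0.406 to 6.09 ± 0.399 CPM (log2 1.59, adjusted p = 8.9e-11). The infection response gene irg-8 fell (log2 -3.75, adjusted p = 6.3e-10). The median of this list changes sign in other settings, which are given with the processing.

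Detoxification enzymes fell more often than they rose. Of the 68 cytochrome P450 genes tested 9 rose, 35 fell and 24 were not called (median log2 -0.54). Of the 63 UDP-glucuronosyltransferase genes tested 7 rose, 37 fell and 19 were not called (median log2 -0.69). Of the 44 glutathione S-transferase genes tested 4 rose, 23 fell and 17 were not called (median log2 -0.65). The 3 medians were -0.42, -0.39 and -0.34 with day 18 libraries 1 to 3, and -0.88, -0.95 and -0.94 with libraries 4 to 6. The P450 gene cyp-14A5 moved the other way and had 101, 128 and 159.5 CPM at day 6 and 352, 578 and 742 at day 18 (log2 2.13, SE 0.18, adjusted p = 7.9e-12). With it the sum of the P450 list was 820 ± 36.9 CPM at day 6 and 1066 ± 216 at day 18. Falling members were cyp-13A5, from 26.3 ± 5.33 to 3.88 ± 1.09 CPM (log2 -2.76, adjusted p = 3e-12), and cyp-25A1, from 13.3 ± 2.74 to 2.101 ± 0.640 CPM (log2 -2.66, adjusted p = 7.3e-12). Among glucuronosyltransferases ugt-17 fell (log2 -2.59, adjusted p = 2e-11) and ugt-31 and ugt-29 rose (log2 1.45, adjusted p = 2.2e-07 and log2 1.23, adjusted p = 7.3e-08). The transferase gene gst-27 went from 32.2 ± 6.38 to 6.36 ± 2.74 CPM (log2 -2.34, adjusted p = 6.2e-10), and 15 of the GST genes fell in libraries 1 to 3 alone. Of the 37 antioxidant and metal handling genes tested 9 rose, 9 fell and 19 were not called (median log2 -0.02). The catalase gene ctl-3 rose (log2 1.61, adjusted p = 7.4e-10) and the thioredoxin reductase gene trxr-1 rose (log2 0.78, adjusted p = 1.9e-07). The glutathione peroxidase gene gpx-5 and the methionine sulphoxide reductase gene msra-1 fell (log2 -1.92, adjusted p = 9.2e-10 and log2 -1.54, adjusted p = 1.8e-11). More ABC transporter genes rose than fell. Of the 51 tested 21 rose, 16 fell and 14 were not called (median log2 0.10), while 21 rose and 10 fell with libraries 1 to 3 and 18 rose and 17 fell with libraries 4 to 6. Among them wht-4, wht-5 and wht-8 had the rises given above, and pgp-1 and pmp-5 fell (log2 -1.98, adjusted p = 4.7e-08 and log2 -3.45, adjusted p = 1.1e-09).

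Most neuropeptide genes fell, and genes of sensory cilia rose more often than they fell. Of the 30 FMRFamide-like peptide genes tested 0 rose, 25 fell and 5 were not called (median log2 -0.90), and their sum went from 459 ± 44.5 to 279 ± 45.05 CPM. The gene flp-17, expressed in the carbon dioxide sensing BAG neurons, had 7.94, 8.38 and 10.3 CPM at day 6 and 2.65, 2.79 and 4.16 at day 18 (log2 -1.47, SE 0.20, adjusted p = 2.9e-07), without overlap. Of the 61 other neuropeptide genes tested 4 rose, 39 fell and 18 were not called (median log2 -0.73). With day 18 libraries 1 to 3, 19 of the FMRFamide-like and 26 of the other neuropeptide genes fell (medians -0.71 and -0.41), which was not a majority of the other neuropeptide genes. With libraries 4 to 6, 24 and 40 fell (medians -1.13 and -1.04). The peptide gene nlp-18 fell from 21.4 ± 3.804 to 6.73 ± 1.03 CPM (log2 -1.67, adjusted p = 4.3e-09). Likewise nlp-39 fell from 12.2 ± 3.59 to 1.85 ± 0.977 CPM (log2 -2.72, adjusted p = 1.5e-07), and nlp-59 rose from 4.79 ± 0.812 to 10.1 ± 0.920 CPM (log2 1.08, adjusted p = 2.8e-08). Of the 30 insulin-like peptide genes tested 6 rose, 14 fell and 10 were not called (median log2 -0.58), with a median of -0.23 in libraries 1 to 3. The agonist-type gene daf-28 fell from 7.61 ± 1.81 to 2.84 ± 0.939 CPM (log2 -1.42, adjusted p = 3.5e-06), and ins-22 and ins-37 rose (log2 2.08, adjusted p = 3.8e-09 and log2 1.71, adjusted p = 5.3e-08). Of the 34 synaptic release genes tested 4 rose, 9 fell and 21 were not called (median log2 -0.30). Here 3 rose and 4 fell with libraries 1 to 3, 2 rose and 11 fell with libraries 4 to 6 and 3 rose and 22 fell against the second N2 set. The GABA synthesis gene unc-25 fell from 13.5 ± 2.54 to 6.73 ± 1.39 CPM (log2 -1.01, adjusted p = 0.00014). The tyramine synthesis gene tdc-1 fell from 229.7 ± 12.2 to 143 ± 18.1 CPM (log2 -0.68, adjusted p = 1.8e-05). The glutamate transporter gene eat-4 rose (log2 0.92, adjusted p = 4.7e-06) but not against the second N2 set (log2 0.26). Of 5 pan-neuronal markers, unc-119 and rab-3 fell (log2 -0.38 and -0.41), snb-1 rose (0.23), and rgef-1 and unc-31 did not pass. Of the 43 intraflagellar transport genes tested, which build the cilia of sensory neurons, 19 rose, 1 fell and 23 were not called (median log2 0.36). The gene dyf-3 had 9.84, 10.4 and 12.6 CPM at day 6 and 30.1, 35.2 and 36.6 at day 18 (log2 1.67, SE 0.12, adjusted p = 1.7e-13). The BBSome gene bbs-4 had 1.55, 1.68 and 1.84 and 6.34, 6.89 and 7.46 CPM (log2 2.04, SE 0.17, adjusted p = 3e-12). The kinesin gene osm-3 went from 5.96 ± 0.724 to 12.3 ± 1.88 CPM (log2 1.04, adjusted p = 1.9e-08). All 3 were apart between ages. Against the second N2 set 12 of this list rose and 5 fell. Of the 102 ligand-gated channel and gap junction genes tested 9 rose, 30 fell and 63 were not called (median log2 -0.10), while 11 fell in libraries 1 to 3 alone and 42 against the second N2 set. Of the 63 potassium channel genes tested 12 rose, 24 fell and 27 were not called (median log2 -0.18). In libraries 1 to 3 alone 10 fell. The muscle channel gene twk-18 fell from 11.0 ± 2.03 to 2.85 ± 1.09 CPM (log2 -1.95, adjusted p = 1.8e-09). Of the 155 chemoreceptor genes tested 24 rose, 42 fell and 89 were not called (median log2 -0.20), and 22 rose and 69 fell against the second N2 set (median -0.54). In this list srr-4 rose from 23.7 ± 4.48 to 92.0 ± 10.5 CPM (log2 1.956, adjusted p = 2.2e-13).

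Few genes of signalling and transcription changed by 2-fold. Of the 35 insulin, TOR and AMPK signalling genes tested 5 rose, 1 fell and 29 were not called (median log2 0.03). With DESeq2 9 rose, and against the second N2 set 13 rose and 7 fell. The AMPK subunit gene aak-1 rose from 40.99 ± 3.67 to 63.4 ± 3.84 CPM (log2 0.63, adjusted p = 2e-08). The regulatory subunit gene aakg-1 rose from 76.8 ± 15.6 to 139.8 ± 17.1 CPM (log2 0.86, adjusted p = 1.6e-05). Of the 212 nuclear hormone receptors tested 42 rose, 55 fell and 115 were not called (median log2 -0.09). Against the second set 32 of them rose and 92 fell. The receptor gene nhr-8, which acts in cholesterol and drug responses, fell from 21.7 ± 3.45 to 9.35 ± 1.99 CPM (log2 -1.22, adjusted p = 3.6e-09). The gene nhr-243 rose from 10.2 ± 1.196 to 19.8 ± 1.94 CPM (log2 0.95, adjusted p = 1.6e-10). Of the 167 other transcription factor genes tested 31 rose, 46 fell and 90 were not called (median log2 -0.13), 5 and 17 of them by 2-fold. Against the second set 24 rose and 69 fell. Among these atf-4, the integrated stress response factor, had 79.8, 89.5 and 111 CPM at day 6 and 26.1, 35.5 and 42.4 at day 18 (log2 -1.38, SE 0.12, adjusted p = 1.3e-11). The atf-4 libraries did not overlap between ages. The immune regulator atf-7 fell from 229.6 ± 8.97 to 171 ± 9.36 CPM (log2 -0.43, adjusted p = 1.6e-07). The gene sox-2, a factor of neural development, rose from 10.3 ± 2.07 to 19.2 ± 1.23 CPM (log2 0.90, adjusted p = 4.1e-07). Of the 45 TGF-beta, Wnt and Notch genes tested 5 rose, 14 fell and 26 were not called (median log2 -0.10). The Wnt ligand genes mom-2 and cwn-2 fell (log2 -0.74, adjusted p = 6.3e-06 and log2 -1.17, adjusted p = 4.7e-08). The Notch co-factor gene sel-8 rose (log2 0.88, adjusted p = 0.00079).

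Families that have expanded in nematodes differed in how their members moved. Of 94 tested fbxb genes, an F-box branch, 68 fell and 1 rose (median log2 -1.26), whereas of 142 fbxa genes 37 fell and 46 rose (0.12). Whether the branches differ was not tested. In the nspc family of short peptides 18 of 18 fell (median -4.75). Among them nspc-16 fell from 18.8 ± 3.17 to 0.341 ± 0.116 CPM (log2 -5.76, adjusted p = 3e-17) and nspc-13 from 31.3 ± 4.02 to 0.953 ± 0.223 CPM (log2 -5.03, adjusted p = 6.9e-16). The sum of the nspc, nspa, nspb and nspe genes went from 422 ± 69.5 to 47.2 ± 13.03 CPM. The pud genes, small genes of unknown biochemical role that occur in tandem copies, gave 4 that fell of 5, with pud-1.2 going from 72.1 ± 28.6 to 3.59 ± 1.70 CPM (log2 -4.33, adjusted p = 7.7e-07). Among 150 symbol families with at least 10 tested genes, the aspartic protease family asp (9 of 12 fell) and sdz, named for genes downstream of the embryonic factor SKN-1 (21 of 28 fell), were among the lowest medians. The sodium neurotransmitter symporter family snf (7 of 10 rose), the insulin-receptor-like irld (12 of 22) and the zona pellucida domain family cutl (12 of 27) were among the highest medians outside the sperm and histone families. Of the 52 Skp1-related and ubiquitin conjugation genes tested 12 rose, 15 fell and 25 were not called (median log2 0.01). Among them skr-10, skr-13 and skr-14, partners of F-box proteins in ubiquitin ligases, fell, with log2 -1.84, -1.99 and -1.11. Copies within the nspc, pud, skr and fbx families are alike and can share reads, so single values are uncertain.

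Gene lists followed several courses over the ages between. All ages were compared with the same day 6 libraries, so their values are set side by side with no test of their likeness. Sperm RNA was highest at day 18: the summed major sperm protein level was 18.1 ± 9.04, 6.76 ± 2.104, 43.4 ± 17.4, 379.6 ± 72.3 and 1266 ± 423 CPM at days 6, 8, 11, 14 and 18. Collagens and gut proteases summed to more than at day 6 until day 14 and to less at day 18. Collagens gave 30668 ± 2821, 30725 ± 4028 and 31917 ± 6636 CPM at days 8, 11 and 14 against 15265 ± 4340 at day 18. The protease list gave 17748 ± 3222 and 19575 ± 7525 CPM at days 11 and 14 before 7585 ± 2545. The summed level of lysozymes and saposins was highest at day 14 and near that of day 6 at day 18. It went from 5185 ± 748 through 14597 ± 5755 at day 14 to 5640 ± 2380. The day 18 sum was 7453 CPM in libraries 1 to 3 and 3828 in libraries 4 to 6. In both sets lys-7 alone made up most of it, so the sum does not describe the other members. The yolk gene vit-6 was below its day 6 level from day 11 on, most of all at day 18, with log2 changes from day 6 of 0.19, -0.20, -0.44 and -1.95 at days 8, 11, 14 and 18. Other lists dipped in the middle. Mitochondrial ribosomal protein genes summed to 3008 ± 178, 2581 ± 211, 2000 ± 91.4, 2017 ± 262 and 2585 ± 69.99 CPM over the 5 ages. Complex I genes summed to 1825 ± 83.5, 1734 ± 178, 1363 ± 51.6, 1352 ± 138.7 and 1697 ± 80.6 CPM. Proteasome genes summed to 6995 ± 366, 6744 ± 520, 5678 ± 161, 5538 ± 982 and 6641 ± 505. Their day 18 sums thus lay above those of day 11, and day 18 against day 6 alone does not show the dip. Sarcomere and attachment genes summed to 9313 ± 1206 CPM at day 6 and were not lower at day 8, at 9516 ± 839. After day 8 the sum was lower at each later age, at 7776 ± 1137, 7261 ± 1165 and 4913 ± 370.5 CPM at days 11, 14 and 18. At day 14 the spread between libraries was wide for several lists, such as 72702 ± 30385 CPM for yolk and lipid transport.

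**Figure D4:**
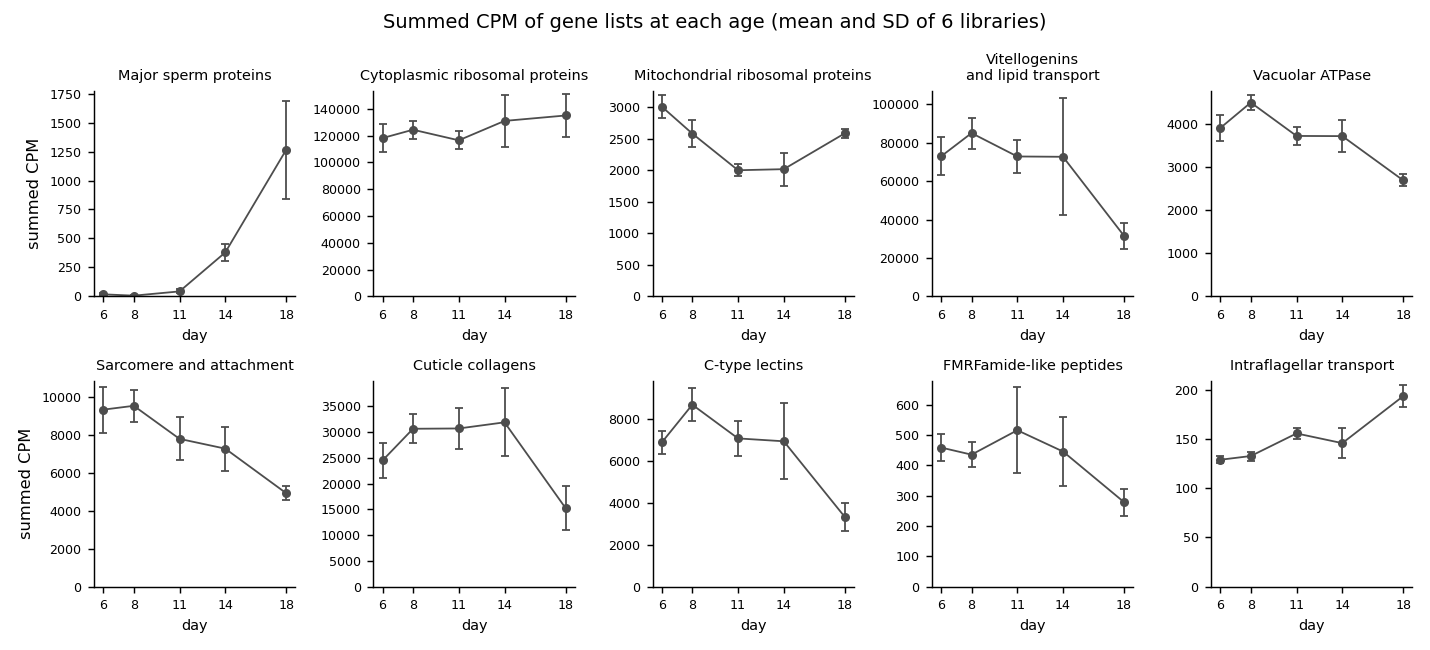
Summed CPM of 10 gene lists at days 6, 8, 11, 14 and 18, as the mean ± SD of 6 libraries per age, each vertical axis starting at 0. Major sperm proteins climb from day 11 on, mitochondrial ribosomal proteins are lowest at days 11 and 14, and collagens, C-type lectins and yolk genes hold until day 14 and are low at day 18.

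Genes of the X chromosome were lower more often than those of the autosomes. Of 2306 tested genes on the X chromosome 16.4 percent were higher and 38.3 percent lower at day 18 (median log2 -0.23), against 31.04 and 26.35 percent of 14364 genes on the autosomes (median 0.02). Chromosome I, which holds unc-54 and eef-2, had 34.3 percent higher and 21.3 percent lower, and chromosome V, which holds many of the expanded families, 27.3 and 30.1 percent. Among protein-coding genes at 10 CPM or more X had 20.3 percent higher and 37.8 percent lower. Without the members of the sperm lists its protein-coding median was -0.245 against 0.005 on the autosomes. Genes outside those lists with the sperm pattern were not removed, so the part of sperm genes in the difference was not tested. The X median ranged from -0.15 with day 18 libraries 1 to 3 to -0.42 against the second N2 set. The yolk genes vit-2, vit-3 and vit-4, the proteases asp-3 and cpr-6 and the collagen col-19 are X-linked members of the falls described. Long genes were lower less often than short ones. The top quintile of protein-coding genes by span had 30.9 percent higher and 19.01 percent lower, the bottom quintile 29.2 and 34.4 percent, and at 10 CPM or more the shares were 34.6 and 16.8 percent against 20.4 and 37.2 percent. Changes of 2-fold or more were rarer in the top quintile (4.99 percent higher and 5.09 percent lower) than in the bottom one (20.7 and 17.1 percent). Of 688 pseudogenes tested, 46.7 percent were higher and 18.2 percent lower (median 0.41), at a median level of 1.26 CPM, where reads can be shared with the parent gene. Genes near each other and of a family are not independent, so these shares carry no test.

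**Figure D5:**
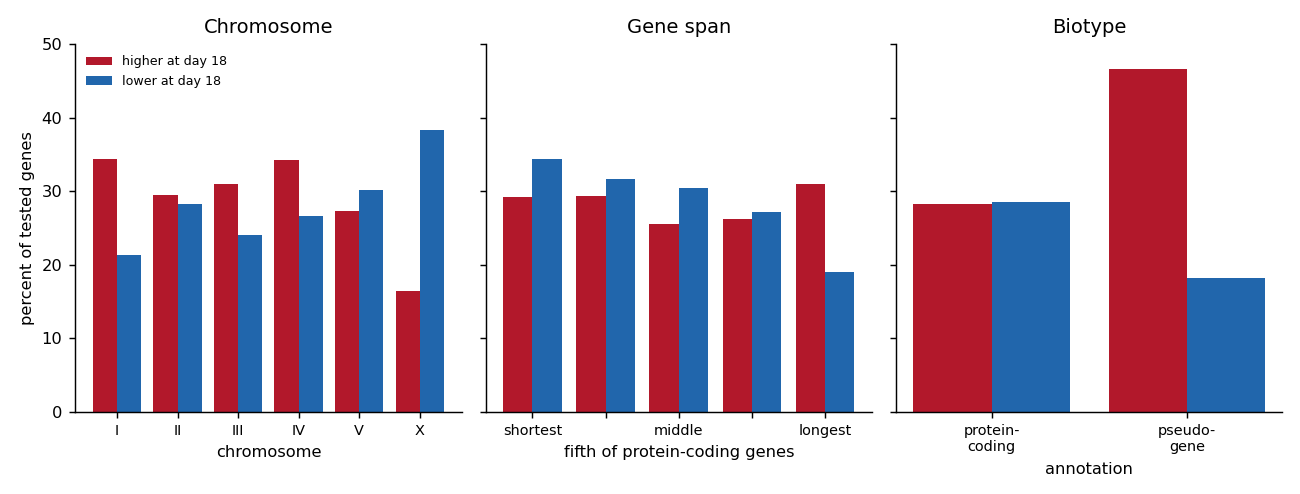
Percent of tested genes higher (red) and lower (blue) at day 18 by chromosome, by quintile of gene span among protein-coding genes and by annotation as protein-coding or pseudogene, on 1 axis from 0. On the X chromosome 38.3 percent were lower and 16.4 percent higher, and the longest of the 5 span groups is the one with more genes higher than lower.

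Genes that differed in CF1038 were found both among those that rose and among those that fell with age. CF1038 differed from the second N2 set at day 6, which shares no library with the age comparison, in 6238 of 16126 tested genes (38.7 percent). Of all 15736 genes tested in both comparisons, 2870 were higher and 3303 lower in CF1038, the counts against which the next shares are to be read. Of the 4020 of them that rose with age, 15.4 percent were higher and 20.7 percent lower in CF1038. Of the 4658 that fell with age 21.1 and 24.1 percent were. Read the other way, 21.5 percent of the 2870 genes higher in CF1038 rose with age and 34.3 percent fell, and of the 3303 lower in CF1038 25.2 and 34.03 percent did, beside 25.6 and 29.6 percent of all 15736 genes tested in both. Like and opposite directions were both common. Of genes called in both comparisons, 618 rose with age and were higher in CF1038, and 1124 fell and were lower. In opposite directions, 833 rose with age and were lower in CF1038, and 983 fell and were higher. Some of the named genes moved oppositely in the 2 comparisons and are given only as examples. The lysozyme gene lys-7 rose with age and was lower in CF1038 (log2 -2.11, adjusted p = 9.6e-14), as was brp-1 (log2 -0.43, adjusted p = 2.6e-07).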

How the data were processed

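RNA of whole worms was sequenced as paired 150 nt reads on a HiSeq4000, per the labels' protocols. The authors deposited expected counts per gene on WBcel235, made with STAR 2.7.11b and RSEM 1.3.3 after FastQC, per the submitters' processing notes. No source used here names the library kit. The deposited expected counts were rounded to whole numbers, which changed 2.73 percent of them. A single fit over the 30 time-course libraries, with one mean per age, was made by edgeR 4.0.16 (filterByExpr, TMM factors, robust quasi-likelihood test, Benjamini-Hochberg adjustment, R 4.3.3), and calls are at an adjusted p under 0.05. The fit was also run on simulated data in which few genes changed. Most genes changed here, so that run cannot vouch for these calls. CPM use TMM-scaled totals. Measures of whole libraries were compared by exact 2-sided permutation tests (scipy 1.17.1). The alternatives were the 12 libraries alone, RLE size factors, DESeq2 1.42.0, limma 3.58.1 voom, other filters, a replicate block, each library left out, each set of 3 day 18 libraries alone, and other day 6 sets. Shared numbers did not pair the libraries. The labels give one batch value, so no batch could be fitted.

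The members, gene lists and rules were chosen with earlier results of these data known, and the chemoreceptor list was corrected after the files were seen. Named genes are the 12 per direction with the largest CPM difference among called genes with ages apart, the 10 per direction with the smallest adjusted p among 2-fold changes, up to 3 per direction in each list, the 5 steadiest genes and daf-16. Promoters were not analysed here.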

Additional observations from a re-analysis of the deposited data

Results flagged for a closer look

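At 8 of 242 sets of 6 libraries tested, 1 library stood apart from the other 5, where chance alone would set apart about 1 in 20 sets. All 8 were at day 6. The yolk genes vit-3 and vit-4 had a lowest day 6 library at 779 and 793 CPM, and both values came from day 6 library 3. The lysosomal protease gene cpr-6 had its lowest at 746 CPM and the deadenylase subunit gene ntl-4 at 96.6 CPM. The peptide gene nspc-16 had its highest day 6 library at 24.8 CPM. Summed over gene lists, 1 library was high for autophagy genes at 2910 CPM and 1 was low for glutathione S-transferases at 926 CPM. The largest day 6 library held 41 M counts.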

How the results depend on the processing

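With a filter of at least 5 CPM in 6 libraries, which tests fewer genes, 3023 genes were higher and 3012 lower, 963 and 835 of them by 2-fold. The other alternatives kept these 4 counts within 1.5 times. Leaving out each library in turn gave 4638 to 4792 genes higher, 4318 to 4614 lower, 2340 to 2435 higher by 2-fold and 1798 to 2100 lower by 2-fold. Same-numbered libraries did not deviate together (correlations from -0.153 to 0.095, and none correlated best with its own number), so they share only a number, and the replicate block gave 4885 genes higher and 4826 lower. Against the second N2 set as day 6, the difference in genes at 1 CPM or more was 296.1, in the share of the 10 highest genes -0.7464 and in mitochondrially encoded RNA -0.15 percentage points, none past the threshold, and in rRNA -0.2426, now past it. Medians of 17 of 66 lists changed sign in some setting, and 9 of these lay within 0.1 of 0 in the main setting. They were DNA replication (0.116 with day 18 libraries 4 to 6 and 0.072 against the second N2 set), chaperonin and HSP70/90 (0.003 with libraries 4 to 6), complexes II to IV (0.001 with libraries 4 to 6), antioxidant (0.024 with libraries 1 to 3), Skp1-related (-0.026 with libraries 1 to 3), and, against the second N2 set, RNA polymerase (0.044), proteasome (0.057), ATP synthase (0.017) and one-carbon genes (-0.138). The other 8 follow. Against the second N2 set and against all 36 N2 day 6 libraries these were autophagy (-0.013 and -0.005), infection response (-0.068 and -0.069) and cuticle processing (-0.235 and -0.170). With the 5 CPM filter they were infection response (-0.722), Hedgehog-related (0.050), insulin-like peptides (0.752) and F-box genes (0.052). With day 18 libraries 4 to 6 they were ABC transporters (-0.031) and infection response (-0.064), and with libraries 1 to 3 transthyretin-like families (0.058). The cause was not tested. Of 379 named genes, 31 lost their call with day 18 libraries 1 to 3, 17 with libraries 4 to 6, 23 against the second N2 set and 3 with DESeq2. Genes near 1 CPM rest on few counts and their fold changes depend on the prior count.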
